A study of Mus musculus with 8 samples.

Results

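The 10 genes described here are 9 keratins, Krt7, Krt8, Krt18, Krt19, Krt5, Krt14, Krt15, Krt17 and Krt4, and the basal cell transcription factor Trp63. They were taken by name from a table of 25124 genes, and all 10 were found in it. The cells had been isolated by flow cytometry from mouse lung and are labelled as epithelium of the airways. The C57BL/6 mice were either conditional knockouts (STAT3-cKO, here cKO) of the cytokine-activated transcription factor STAT3 or wild type (STAT3-WT, here WT). They had been given house dust mite (HDM), an allergen, or phosphate-buffered saline (PBS), which gives 4 groups of 2 libraries: cKO HDM, WT HDM, cKO PBS and WT PBS. The sources used here do not give the allele, the cells in which STAT3 was deleted, or how old the mice were and of which sex. Whether both libraries of a group represent separate animals is not said in the labels, so the tests measure the spread between these libraries.

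Keratins are the intermediate filament proteins of epithelia. Each filament pairs a type II keratin (here Krt7, Krt8, Krt5 and Krt4) with a type I keratin (Krt18, Krt19, Krt14, Krt15 and Krt17), and the pair in use tells the kind of epithelial cell. Krt8 with Krt18, and Krt7 with Krt19, are keratins of simple epithelia such as the secretory, ciliated and alveolar cells of the lung. Krt5 with Krt14 mark basal cells, the stem cells at the base of the large airways, whose identity depends on Trp63.

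In these libraries the simple-epithelial keratins were abundant. Of the basal set, Krt14 and Krt17 were at 0. Krt5 and Trp63 had few reads, at most 10 and 9 in any library, while Krt15 was low but present in every library. Krt7, Krt8, Krt18 and Krt19 together took 0.183% and 0.189% of reads in cKO HDM, 0.128% and 0.138% in WT HDM, 0.172% and 0.165% in cKO PBS, and 0.191% and 0.184% in WT PBS. They made up 83.8% to 94.2% of all reads on the 55 keratin genes of the table, depending on the library. Krt14 and Krt17 had 0 reads in all 8 libraries, and Krt5 and Trp63 had 29 and 11 reads over the 8 libraries, against 199 for Krt15 and 1678 for Krt8. None of the 5 members with enough signal to be tested differed between groups past an adjusted p of 0.05. Krt8 came nearest, with its lowest values in WT HDM.

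Depth was low, at 232556 to 593200 reads per library, and a gene at 0 reads is read as at most 3 reads, equal to between 1.96 and 4.88 normalized counts. Replicates of a group correlated across genes at r = 0.56 to 0.77, and libraries of different groups at 0.44 to 0.77. Stat3 itself stood at 76.9 and 92.2 normalized counts in cKO HDM, 134 and 157 in WT HDM, 56.9 and 96.5 in cKO PBS, and 75.8 and 40.9 in WT PBS. Its transcript was not detectably lower in the libraries labelled cKO (limma adjusted p = 0.549 under HDM and 0.845 under PBS), so genotypes are given as labelled. As a check of the labelled cell type, 10 club cell genes summed to 7046 to 16921 normalized counts and 10 ciliated cell genes to 1690 to 3086, with every gene of both lists high enough to be tested. Alveolar type 2 genes were present in every library as well, at 4397 to 15451.

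The keratins lie in the keratin clusters of the mouse genome. Krt8 (chromosome 15, 101996698 to 102004482, minus strand) and its partner Krt18 (102028180 to 102032027, plus strand) stand head to head, 23697 bases apart, in GRCm38 (mm10). Krt7 (101411043 to 101430313), Krt5 and Krt4 lie on the same chromosome. Krt19 (chromosome 11, 100140810 to 100148665), Krt15, Krt14 and Krt17 are on chromosome 11, and Trp63 is on chromosome 16 (25683763 to 25892102). All 10 are protein-coding, with 6 to 9 exons for the keratins. A non-coding gene on the other strand, Gm36026, overlaps the start of Krt8, and their reads cannot be told apart there without strand. Gm671, also on the other strand, overlaps the upstream part of the Krt7 gene. It ends at 101412311, before the longest coding transcript of Krt7 begins at 101412402.

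Promoter windows (250 bases before to 50 after the RefSeq start, GRCm38.p6) were held for 5 of the 10 members. The simple-epithelial pair Krt8 and Krt18 and the type II keratins Krt7 and Krt5 are shown, since they set 3 expressed keratins beside 1 with few reads. The window of Krt14, the other match, is not shown, since its RefSeq start lies 1518 bases inside the longest coding transcript of GENCODE. The RefSeq start lies 140 bases inside that transcript for Krt8, 36 for Krt18 and 1 for Krt7, and 7 bases before it for Krt5. The Krt7 window lies inside the GENCODE gene, whose other transcripts begin up to 1360 bases further upstream. Each is written 5′ to 3′ on the strand of its gene, with the motif matches in capitals.
Krt8 promoter, chr15:102004293-102004592, minus strand: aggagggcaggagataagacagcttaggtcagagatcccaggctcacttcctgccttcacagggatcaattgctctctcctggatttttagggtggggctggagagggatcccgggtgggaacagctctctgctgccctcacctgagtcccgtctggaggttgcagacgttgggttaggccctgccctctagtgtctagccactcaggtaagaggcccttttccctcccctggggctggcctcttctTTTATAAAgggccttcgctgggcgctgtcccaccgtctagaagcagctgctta
Krt18 promoter, chr15:102027966-102028265, plus strand: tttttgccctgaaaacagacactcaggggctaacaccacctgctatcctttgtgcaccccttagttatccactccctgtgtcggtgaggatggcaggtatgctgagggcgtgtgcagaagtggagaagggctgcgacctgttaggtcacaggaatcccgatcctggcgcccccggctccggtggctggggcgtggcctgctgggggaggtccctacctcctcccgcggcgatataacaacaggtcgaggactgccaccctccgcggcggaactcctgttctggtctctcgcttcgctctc
Krt7 promoter, chr15:101412153-101412452, plus strand: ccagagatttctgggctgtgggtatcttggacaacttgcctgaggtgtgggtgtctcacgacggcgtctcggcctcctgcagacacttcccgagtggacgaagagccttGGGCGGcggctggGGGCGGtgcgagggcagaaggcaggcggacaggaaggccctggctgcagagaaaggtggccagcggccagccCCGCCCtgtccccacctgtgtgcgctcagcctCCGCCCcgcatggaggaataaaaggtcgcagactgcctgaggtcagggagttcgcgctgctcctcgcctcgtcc
Krt5 promoter, chr15:101712856-101713155, minus strand: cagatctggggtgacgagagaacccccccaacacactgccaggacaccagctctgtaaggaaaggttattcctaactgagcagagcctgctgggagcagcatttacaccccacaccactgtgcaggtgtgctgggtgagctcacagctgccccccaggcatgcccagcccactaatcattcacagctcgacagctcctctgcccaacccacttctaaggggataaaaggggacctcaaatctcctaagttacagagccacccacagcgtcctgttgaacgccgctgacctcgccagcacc
The motifs searched on both strands were the STAT site TTCNNNGAA, the AP-1 site TGANTCA, the GC box GGGCGG and the TATA box TATAAA. Krt7 held 4 GC boxes, at 141, 128, 56 and 24 bases before the RefSeq start, a motif found in 35.7% of all promoter windows. Krt8 held TATA boxes on both strands, which overlap at the RefSeq start; 13.6% of windows hold one. None of the 4 windows held the STAT site (8.30% of windows) or the AP-1 site (7.81%), which says only that those letters are not in these 300 bases.

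Compared per length of transcript (GENCODE M21), the members ranged from Krt19 to genes at 0, with Krt7 and Krt15 between the most abundant 3 and the rest. Over the 8 libraries Krt19 averaged 128 normalized counts per kb of transcript, Krt18 averaged 115 and Krt8 averaged 96.9. Their ranges overlapped, at 94.9 to 156 for Krt19, 82.1 to 136 for Krt18 and 69.1 to 126 for Krt8, so the order of these 3 is not fixed by the data. Krt7 followed at 19.99 per kb, which rests on an annotated transcript of 4094 bases. Per kb of coding sequence it stood at 59.7, against 129 for Krt8, 131 for Krt18 and 167 for Krt19, and was the lowest of the 4 on that scale too. Krt15 came next at 13.4 normalized counts per kb of transcript, with a range of 1.71 to 29.4 that overlapped that of Krt7 (13.3 to 28.8). Krt4 at 2.46, Krt5 at 1.67 and Trp63 at 0.371 per kb lay below, and Krt14 and Krt17 were listed at 0.

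The type II keratin Krt8 held 247 and 203 normalized counts in cKO HDM, 139 and 135 in WT HDM, 197 and 156 in cKO PBS, and 225 and 215 in WT PBS. Both WT HDM libraries were below the 6 others, and the cKO PBS libraries lay between. In reads, cKO HDM had 66.7 per 100000 (exact 95% interval 59.8 to 74.2) and 53.9 (47.4 to 61.1), against 35.9 (31.2 to 41.1) and 33.0 (27.0 to 40.0) in WT HDM. These intervals cover counting error only. They do not overlap between the groups, while those of the replicates within each group do. The means were 225 ± 31.1 in cKO HDM, 137 ± 2.50 in WT HDM, 177 ± 28.7 in cKO PBS and 220 ± 7.38 in WT PBS (SD, n = 2 libraries each).

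**Figure D1:**
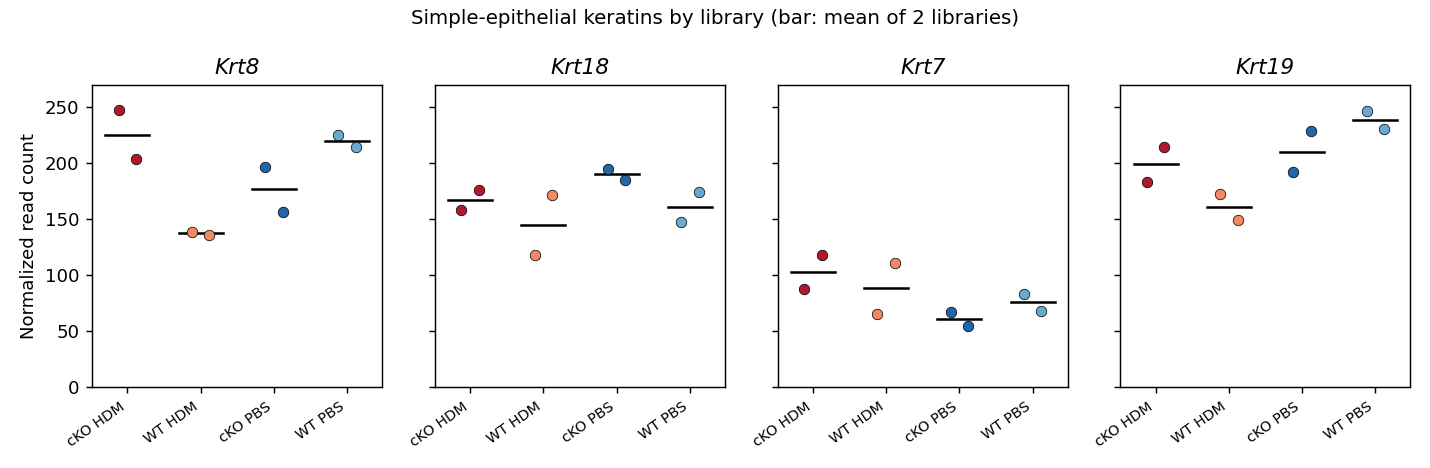
Normalized read count (vertical axis, from 0) of Krt8, Krt18, Krt7 and Krt19 in each library of the 4 groups; points are libraries and bars are means of 2. Krt8 is lowest in both WT HDM libraries (139 and 135), and Krt18 overlaps between cKO HDM and WT HDM.

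Tested against the spread of all 4 groups, these differences of Krt8 did not pass. In WT mice HDM against PBS gave a log2 difference of -0.68 ± 0.27 (SE; 95% interval -1.24 to -0.11; limma adjusted p = 0.443). Under HDM, cKO against WT gave 0.71 ± 0.27 (0.14 to 1.27; limma adjusted p = 0.382). In cKO mice HDM against PBS gave 0.35 ± 0.27 (-0.21 to 0.92; limma adjusted p = 0.751), and under PBS cKO against WT gave -0.32 ± 0.27 (-0.89 to 0.24; limma adjusted p = 0.817). The response of cKO minus that of WT was 1.03 ± 0.37 (0.23 to 1.83; limma adjusted p = 0.547). Among 7512 genes ranked by unadjusted p, Krt8 stood 372nd for HDM against PBS in WT, 341st for cKO against WT under HDM and 198th for the interaction. In a mixed cell sample, fewer cells that express a keratin and less of its RNA per cell cannot be told apart.

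Marker genes of several cell types also stood apart in WT HDM, but those of club cells did not. The 10 club cell genes summed to 7843 to 10123 normalized counts in cKO HDM and 7046 to 8791 in WT HDM, which overlap. With PBS they summed to 12563 to 16921 in cKO and 10004 to 10845 in WT, above the HDM libraries of the same genotype. The 10 pan-epithelial genes, among them the junction protein Cdh1 and Epcam, summed to 1671 to 1956 normalized counts in cKO HDM, 1439 to 1465 in WT HDM, 1989 to 2071 in cKO PBS and 1815 to 1852 in WT PBS. Epcam by itself did not follow this sum. It held 127 and 99.7 in cKO HDM, 114 and 153 in WT HDM, 133 and 151 in cKO PBS, and 123 and 179 in WT PBS. The 10 ciliated cell genes summed to 3028 to 3086 in cKO HDM and 1690 to 1875 in WT HDM, with 2588 to 2832 over both PBS groups. The 10 alveolar type 2 genes ran the other way, at 4769 to 5205 in cKO HDM 10263 to 15451 in WT HDM and 4397 to 6396 over both PBS groups. Fibroblast and smooth muscle genes summed to 134 to 142 in cKO HDM and 1566 to 1737 in WT HDM, with 48.8 to 125 over both PBS groups. Endothelial genes summed to 203 to 247 in cKO HDM, 991 to 1029 in WT HDM and 199 to 335 over both PBS groups. Alveolar type 1 genes summed to 426 to 576 in cKO HDM, 783 to 815 in WT HDM and 433 to 601 over both PBS groups. Leukocyte genes summed to 4.35 to 8.31 in cKO HDM, 67.8 to 255 in WT HDM and 1.53 to 17.9 over both PBS groups. Erythroid genes summed to 3.32 to 13.1 in cKO HDM, 229 to 424 in WT HDM and 22.8 to 36.4 over both PBS groups. The alveolar, fibroblast, endothelial, leukocyte and erythroid sums were thus all highest in the WT HDM libraries. The pan-epithelial and ciliated sums were lowest in both of those libraries. All 10 genes of the pan-epithelial, ciliated and alveolar type 2 lists, and 8 of the 10 fibroblast and smooth muscle genes, were high enough to be tested, as were 9 of 10 endothelial, 7 of 10 alveolar type 1, 1 of 10 leukocyte and 3 of 5 erythroid genes. Of all these, 1 leukocyte gene was at 0 in every library. The part of these in the Krt8 values was not tested. As a ratio within a library, Krt8 to Cdh1 was 0.319 and 0.293 in cKO HDM, 0.239 and 0.208 in WT HDM, 0.248 and 0.181 in cKO PBS, and 0.305 and 0.293 in WT PBS. By this ratio WT HDM lay below cKO HDM and WT PBS but overlapped cKO PBS. Krt8 to Epcam was 1.95 and 2.04 in cKO HDM, 1.22 and 0.882 in WT HDM, 1.48 and 1.03 in cKO PBS, and 1.83 and 1.20 in WT PBS. By that ratio WT HDM lay below cKO HDM alone and overlapped both WT PBS and cKO PBS. With libraries rescaled to equal pan-epithelial sums, a choice made after seeing the data, Krt8 stood at -0.34 for HDM against PBS in WT, where the median of all genes was 0.30, and at 0.39 for cKO against WT under HDM, where that median was -0.29.

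**Figure D2:**
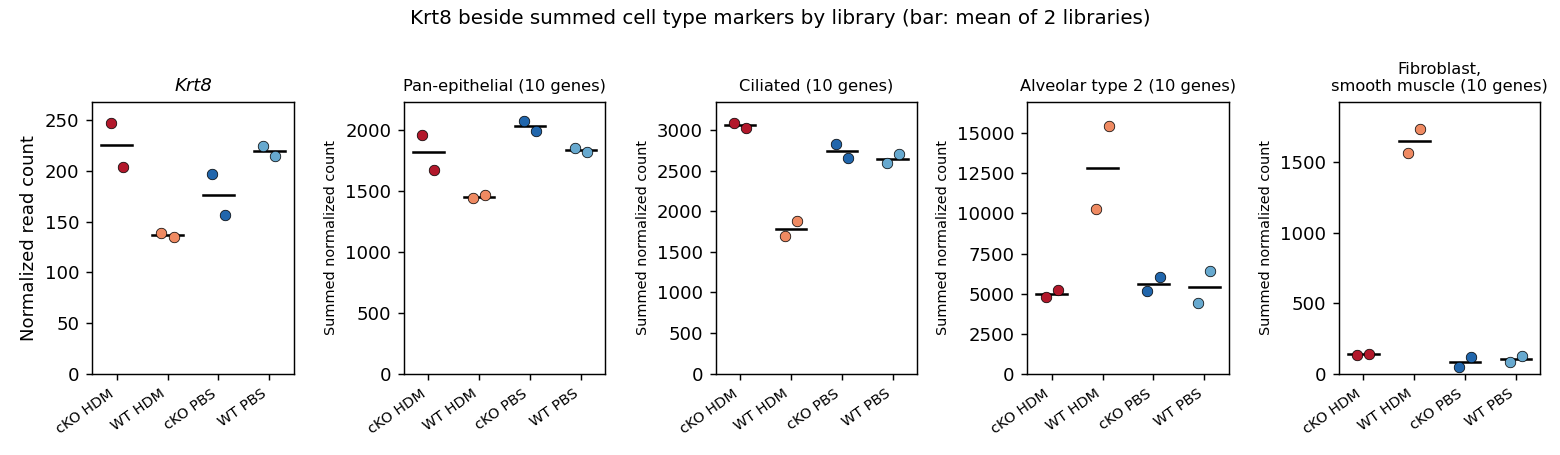
Normalized read count of Krt8 (left panel) and summed normalized counts of 10 marker genes each for pan-epithelial, ciliated, alveolar type 2, and fibroblast and smooth muscle cells, by library; bars are means of 2 libraries. The WT HDM libraries are lowest for Krt8, for the pan-epithelial sum (1439 and 1465) and for the ciliated sum (1690 and 1875). They are highest for the alveolar type 2 and fibroblast sums.

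Krt18, the type I partner of Krt8, held 158 and 176 normalized counts in cKO HDM, 118 and 171 in WT HDM, 195 and 185 in cKO PBS, and 148 and 175 in WT PBS. The groups overlapped except for cKO PBS, which was above WT PBS and above both HDM groups. Its log2 differences ran from -0.19 ± 0.28 (HDM against PBS in cKO) to 0.24 ± 0.28 (cKO against WT under PBS), each with limma adjusted p of at least 0.879. The ratio of Krt8 to Krt18 was 1.56 and 1.16 in cKO HDM, 1.18 and 0.789 in WT HDM, 1.01 and 0.842 in cKO PBS, and 1.52 and 1.23 in WT PBS. Krt8 and Krt18 thus did not keep a fixed ratio across libraries. As a description over 8 libraries their log2 values correlated at r = 0.22, and those of Krt8 and Krt19 at r = 0.56.

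Krt19, a type I keratin of simple and some basal epithelia, held 184 and 214 normalized counts in cKO HDM, 172 and 150 in WT HDM, 192 and 229 in cKO PBS, and 246 and 231 in WT PBS. As for Krt8, both WT HDM libraries were below the 6 others. The share of all genes with this pattern is not given here, so it is not read as particular to keratins. HDM against PBS in WT gave -0.57 ± 0.26 (95% interval -1.12 to -0.02; limma adjusted p = 0.531). Under HDM, cKO against WT gave 0.30 ± 0.26 (-0.25 to 0.85; limma adjusted p = 0.772).

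Krt7, a type II keratin of simple epithelia, held 87.8 and 118 normalized counts in cKO HDM, 65.2 and 111 in WT HDM, 66.7 and 54.6 in cKO PBS, and 83.4 and 68.2 in WT PBS. The cKO HDM libraries were above both cKO PBS libraries, and WT HDM overlapped every other group. HDM against PBS gave 0.74 ± 0.37 in cKO (95% interval -0.05 to 1.54; limma adjusted p = 0.653) and 0.17 ± 0.37 in WT (-0.62 to 0.97; limma adjusted p = 0.947). The difference between these responses was 0.57 ± 0.53 (-0.55 to 1.70; limma adjusted p = 0.787).

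Krt15, a type I keratin of basal cells that pairs with Krt5, was the one basal marker found in every library. It held 2.90 and 27.4 normalized counts in cKO HDM (4 and 33 reads), 22.8 and 23.2 in WT HDM, 11.4 and 21.6 in cKO PBS, and 23.0 and 50.01 in WT PBS. The replicates of cKO HDM lay further apart than any pair of group means, at 0.783 reads per 100000 (exact 95% interval 0.213 to 2.004) and 7.26 (5.001 to 10.2). The largest difference, cKO against WT under HDM, gave -1.19 ± 0.87 (95% interval -3.04 to 0.66; limma adjusted p = 0.725). Without the first cKO HDM library that difference was 0.24.

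Across the 5 comparisons 0 of the 5 tested members passed with limma, edgeR or DESeq2, and 4 of the 25 member tests had an unadjusted p under 0.05 with limma (3 for Krt8 and 1 for Krt19). Over all genes the share under that unadjusted p was 8.93% for HDM against PBS in WT, which holds 1 of the Krt8 tests and that of Krt19, 9.60% for cKO against WT under HDM and 7.77% for the interaction, which hold the others. It was 7.77% for HDM against PBS in cKO and 6.96% for cKO against WT under PBS. The share of all 7512 genes that passed was 0.519% for HDM against PBS in WT, 0.0532% for HDM against PBS in cKO, 0.572% for cKO against WT under HDM, 0% for cKO against WT under PBS (0 genes with limma, edgeR or DESeq2, and 523 genes at an unadjusted limma p under 0.05) and 0.0266% for the interaction. At such shares, 0 of 5 is no result about keratins. These shares lean on single libraries: without the second cKO PBS library 320 genes passed for HDM against PBS in cKO, 315 for cKO against WT under PBS and 115 for the interaction, and 0 members among them. The libraries of both groups did not overlap for 2 of the 5 in HDM against PBS in WT (42.0% of all genes), 3 in HDM against PBS in cKO (35.6%), 2 in cKO against WT under HDM (43.1%) and 5 in cKO against WT under PBS (34.7%). In the last, Krt7, Krt8, Krt15 and Krt19 were lower and Krt18 was higher in cKO, with sizes of -1.06 to 0.24 on the log2 scale and limma adjusted p of 0.817 to 0.892. Comparisons that share a group share its libraries, so these counts are not independent.

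**Figure D3:**
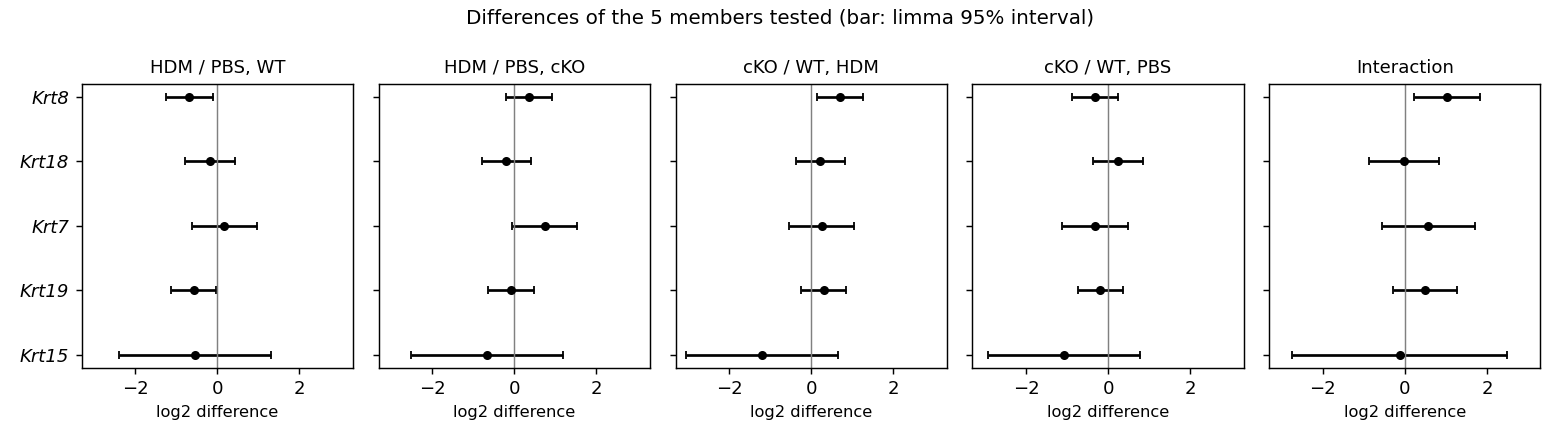
Log2 differences (horizontal axis) of the 5 members tested in each of the 5 comparisons, with 95% intervals from limma; 0 marks no difference. The intervals of Krt8 lie off 0 for HDM against PBS in WT, for cKO against WT under HDM and for the interaction, before adjustment over 7512 genes, and those of Krt15 are the widest.

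The other 5 members were below the filter. Fitted without a filter, Krt5, Krt4 and Trp63 did not pass in any comparison (limma adjusted p of at least 0.732), and Krt14 and Krt17 had no value to fit. Krt5, the type II keratin of basal cells, had 0 and 8 reads in cKO HDM, 6 and 4 in WT HDM, 0 and 10 in cKO PBS, and 0 and 1 in WT PBS. Its highest value, 12.7 normalized counts in the second cKO PBS library, stood beside 0 in the first. Krt14, the usual partner of Krt5, and Krt17, a type I keratin of basal and injured epithelium, had 0 reads throughout. Trp63, the transcription factor that basal cells depend on, had 9 reads in the first cKO PBS library (14.6 normalized counts) and 2 in the first WT HDM library (1.30), and 0 in the 6 others. The library with the most Trp63 reads had 0 reads of Krt5 and 7 of Krt15. The first WT HDM library, with 2 Trp63 reads, had 6 of Krt5 and 35 of Krt15.

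Krt4, a type II keratin of the luminal cells called hillock cells in the mouse trachea, had 0 and 14 reads in cKO HDM, 0 and 0 in WT HDM, 0 and 12 in cKO PBS, and 2 and 15 in WT PBS. One library of each of 3 groups thus held nearly all of its 43 reads. In cKO PBS the replicates stood at 0 (exact 95% interval up to 1.59) and 4.02 (2.08 to 7.03) reads per 100000, so counting error alone does not cover the gap. The 3 libraries with more than 2 Krt4 reads are each numbered 2 in the labels, but same-numbered libraries did not deviate together across genes (r = -0.02 to 0.02). Krt13, with which Krt4 pairs, had 0 reads in all libraries.

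**Figure D4:**
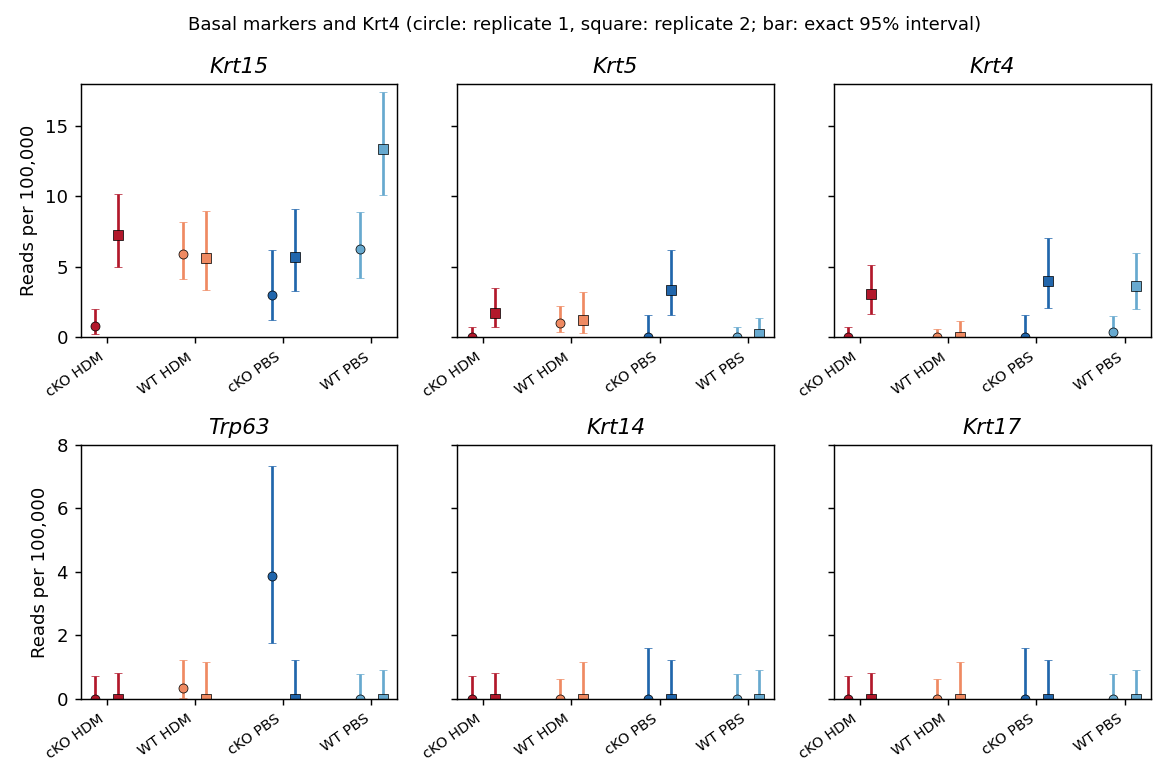
Reads per 100000 (vertical axis, from 0; the rows of panels differ in scale) of Krt15, Krt5, Krt4, Trp63, Krt14 and Krt17 in each library, with exact 95% intervals for counting error; circles are first and squares second replicates. Krt4 is present in the second library of cKO HDM, cKO PBS and WT PBS and, at 2 reads, in the first of WT PBS. Trp63 is present in the first library of cKO PBS (9 reads) and of WT HDM (2 reads).

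Of 12 further basal cell genes 6 were too low to be tested. Snai2 had 0 reads, and the nerve growth factor receptor Ngfr and Dapl1 had 2 and 3 reads over the 8 libraries. Col17a1, a hemidesmosome collagen, had 11 reads in 5 libraries. Aqp3, a water channel, had 50 reads in 7 libraries, and Pdpn, which alveolar type 1 cells also make, had 46 reads in 7 libraries. The 6 tested were genes that other lung cells also express, such as the laminin receptor subunits Itga6 and Itgb4. None of these 6 passed in any of the 5 comparisons with limma. Lamb3, a laminin chain, held 24.7 and 9.14 normalized counts in cKO HDM, 26.7 and 55.4 in WT HDM, 17.9 and 5.08 in cKO PBS, and 6.89 and 0.909 in WT PBS. It had the smallest p of the 6 for HDM against PBS in WT (3.35 ± 1.02; limma adjusted p = 0.248). The WT PBS libraries held 9 reads and 1 read of Lamb3, the latter below the limit of 3 reads. That size thus depends on the 1 added to each value before the log. Bcam, a laminin-binding adhesion molecule also found on alveolar and endothelial cells, held 95.8 and 68.9 normalized counts in cKO HDM, 143 and 179 in WT HDM, 68.3 and 57.1 in cKO PBS, and 79.6 and 101 in WT PBS. It was highest in both WT HDM libraries and gave -0.97 ± 0.34 for cKO against WT under HDM (limma adjusted p = 0.328). The median of the 6 was 0.42 for HDM against PBS in WT and 0.45 in cKO, against -0.03 and 0.10 over all genes. It was -0.41 for cKO against WT under HDM and -0.24 under PBS, against 0.02 and -0.09 over all genes.

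Of 14 hillock and squamous genes 8 had 0 reads in every library, among them Krt13, Krt6a, Krt6b and the cornified envelope genes Sprr1a and Sprr3, and 4 were tested. None of these 4 passed. Anxa8, an annexin, held 224 and 188 normalized counts in cKO HDM, 111 and 85.1 in WT HDM, 216 and 118 in cKO PBS, and 222 and 154 in WT PBS. Like Krt8 it was lowest in both WT HDM libraries (cKO against WT under HDM 1.07 ± 0.33; limma adjusted p = 0.227). Calml3, a calmodulin-like protein of epithelia, held 34.1 and 48.2 in cKO HDM, 19.6 and 20.6 in WT HDM, 74.8 and 72.4 in cKO PBS, and 46.7 and 62.7 in WT PBS. HDM against PBS gave -1.39 ± 0.44 in WT (limma adjusted p = 0.28) and -0.84 ± 0.44 in cKO (limma adjusted p = 0.659).

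Desmosomes anchor keratin filaments at cell contacts. Of 11 desmosome and keratin linker genes 9 were tested and 0 passed. The median of the 9 was -0.21 for HDM against PBS in WT and 0.04 in cKO, against -0.03 and 0.10 over all genes. For cKO against WT it was 0.31 under HDM and -0.05 under PBS, against 0.02 and -0.09 over all genes. For the interaction it was 0.34, against 0.16. Dsp, desmoplakin, which binds keratins directly, held 144 and 228 normalized counts in cKO HDM, 137 and 156 in WT HDM, 252 and 248 in cKO PBS, and 202 and 208 in WT PBS. Its HDM against PBS differences were -0.49 ± 0.28 in WT and -0.46 ± 0.28 in cKO (limma adjusted p = 0.678 and 0.71). Eppk1, the keratin-bundling epiplakin, gave 2.74 ± 0.94 for HDM against PBS in cKO (limma adjusted p = 0.537), from 73.3 and 49.0 normalized counts in cKO HDM against 1.63 and 30.5 in cKO PBS. The 1.63 is 1 read, below the limit of 3 reads, beside 24 reads in the other cKO PBS library. This size thus leans on that library and on the 1 added to each value before the log.

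Of the other intermediate filament genes, 5 of 8 were tested and 0 passed. Vim, vimentin, the filament protein of mesenchymal cells, held 48.6 and 33.2 normalized counts in cKO HDM, 155 and 211 in WT HDM, 0 and 3.81 in cKO PBS, and 21.4 and 11.8 in WT PBS. It missed the threshold for HDM against PBS in WT (3.42 ± 0.75; limma adjusted p = 0.054) and in cKO (4.23 ± 0.75; limma adjusted p = 0.063). The cKO PBS libraries held 0 and 3 reads of Vim, no more than the limit of 3 reads. The size in cKO thus depends on the 1 added to each value before the log. The fibroblast and smooth muscle sum given above was also highest in WT HDM. The part of those cells in the Vim values was not tested.

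Krt8 is also a marker of transitional cells that arise from alveolar type 2 cells after lung injury. Of 10 genes of that state 6 were tested and 0 passed, and Tnip3 had 0 reads. Cldn4, a claudin, held 13.1 and 7.48 normalized counts in cKO HDM, 5.22 and 0 in WT HDM, 11.4 and 3.81 in cKO PBS, and 20.7 and 28.2 in WT PBS. Cdkn1a, a cell cycle inhibitor, held 37.7 and 46.5 in cKO HDM, 92.0 and 68.3 in WT HDM, 107 and 96.5 in cKO PBS, and 81.9 and 83.7 in WT PBS. It was lowest in the cKO HDM libraries, where Krt8 was high (HDM against PBS in cKO -1.26 ± 0.36; limma adjusted p = 0.42). The 6 tested genes did not share a direction: for HDM against PBS 3 of 6 were positive in cKO and 3 of 6 in WT. Their median was 0.24 in cKO and -0.02 in WT, against 0.10 and -0.03 over all genes. For cKO against WT under HDM it was 0.07, against 0.02 over all genes.

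Of the 46 keratin genes outside the members 36 had 0 reads in every library and 2 were tested, Krt80 and Krt23, both without passing. Krt80, a type II keratin, held 19.6 and 12.5 normalized counts in cKO HDM, 28.7 and 30.9 in WT HDM, 29.3 and 22.9 in cKO PBS, and 17.6 and 13.6 in WT PBS. The interaction was -1.59 ± 0.88 (limma adjusted p = 0.678), with the sign opposite to that of Krt8. Krt23, a type I keratin, held 9.43 and 13.3 in cKO HDM, 30.7 and 16.8 in WT HDM, 1.63 and 10.2 in cKO PBS, and 13.8 and 9.09 in WT PBS.

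Mesothelial cells, which line the lung surface, also make Krt7, Krt8, Krt18 and Krt19. The 10 mesothelial markers found summed to 18.3 to 23.9 normalized counts in cKO HDM, 73.7 to 87.7 in WT HDM, 29.3 to 76.2 in cKO PBS and 35.2 to 70.9 in WT PBS, and Msln alone was high enough to be tested. Their sum was highest, on average, in WT HDM, where Krt8 and Krt19 were lowest, and its part in their values was not tested.

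With predicted and clone-named genes left out, the 3 genes whose levels followed each tested member most closely are given as a description. They were ranked over the 8 libraries, and 8 points and 7512 genes leave many close matches. For Krt8 the nearest 3 were Arl4c, a small GTPase (r = 0.96), Dync2li1, a dynein chain of transport inside cilia (r = 0.94), and Dnah11, an axonemal dynein of motile cilia (r = 0.93). For Krt19 they were Aldh3a1, an aldehyde dehydrogenase (r = 0.96), Slc16a11 (r = 0.95) and Lpar3 (r = 0.95). Krt18 was followed by Ptges2, Rsl24d1 and Magi2 (r = 0.95, 0.95 and 0.93), Krt7 by Hsd17b11, Tpd52 and Clptm1l (r = 0.93, 0.90 and 0.90), and Krt15 by Dph3, Zfand6 and Mcm3ap (r = 0.97, 0.95 and 0.92). No gene appears among the nearest 3 of more than 1 member.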

How the data were processed

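RNA from sorted mouse lung cells was sequenced as strand-specific libraries, per the labels' protocols. Per the submitters' processing notes the tools included HOMER and DESeq2, on build mm10. The sources used here name no aligner, annotation or version, nor whether counting used strand. Each deposited value is a signal per gene and library, a read count divided by 1 factor per library. All non-zero values (100%) were whole multiples of the value of 1 read within 0.01 reads, which recovered the reads.

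Values were tested as log2(value + 1), which understates the change of low genes, for the 7512 genes with a mean of at least 10 over the 8 libraries. limma 3.58.1 in R 4.3.3 fitted 1 mean per group over all 8 libraries with a variance trend. Tests were two-sided, with Benjamini-Hochberg adjustment over all genes tested. The fit was also run on simulated reads with the same dispersion for every gene, which does not test it at the spread of these libraries. Errors on log2 differences are standard errors. Intervals on reads are exact Clopper-Pearson intervals at 95% and leave out PCR duplication, as no molecular identifiers are recorded.

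Alternatives were other pseudocounts, filters, scalings and variance models, edgeR 4.0.16, DESeq2 1.42.0, a replicate block, each library left out, and fits of the groups compared. The members, gene lists and tests were chosen with earlier results of these data known. From each list the text names genes among the 3 with the smallest unadjusted p in a comparison, and some at 0. The 3 genes of highest correlation with each tested member were named too, with predicted and clone-named genes left out.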

Additional observations from a re-analysis of the deposited data

Results flagged for a closer look

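Krt8 stood out because both WT HDM libraries were below both WT PBS libraries while both cKO HDM libraries were above both cKO PBS libraries. The difference between the responses, cKO minus WT, was 1.03 on the log2 scale and did not pass over all genes (limma unadjusted p = 0.0148, adjusted p = 0.547). It was positive under all 19 alternatives, from 0.86 to 1.20. Opposite movement without overlap was found for 584 of 7512 genes (7.77%), so the pattern is not particular to Krt8.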

How the results depend on the processing

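Over 20 alternative settings, 461 of 490 member values kept their direction and their side of the threshold, and no member passed under any setting. The smallest adjusted p was 0.153, for Krt8 in cKO against WT under HDM among genes with a mean of at least 50. All 5 Krt8 differences kept their direction, and 14 of the 25 results never turned. Equal pan-epithelial sums, chosen after seeing the data, gave Krt18 0.16 for HDM against PBS in WT and Krt19 0.0874 for HDM against PBS in cKO; under HDM, cKO against WT gave Krt7 -0.0573, Krt18 -0.0861 and Krt19 -0.0110. TMM scaling gave Krt19 0.0342 for HDM against PBS in cKO, and moved the median of all genes there to 0.21, against 0.10 as deposited, to -0.19 against -0.09 for cKO against WT under PBS and to 0.32 against 0.16 for the interaction. For the interaction, Krt18 was 0.15 with TMM, 0.11 with totals and 0.0222 with edgeR, and Krt15 was 0.0285 with TMM, 0.10 with a pseudocount of 5, 0.55 with edgeR and 0.51 with DESeq2. The cause was not tested.

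With 1 library left out, where the lone library is assumed to vary like the other groups, HDM against PBS in WT ranged from -0.44 to 0.0938 for Krt18, -0.21 to 0.55 for Krt7 and -1.09 to 0.0031 for Krt15. HDM against PBS in cKO ranged from -0.20 to 0.0471 for Krt19 and -2.10 to 0.76 for Krt15. Under HDM, cKO against WT ranged from -2.62 to 0.24 for Krt15, -0.12 to 0.63 for Krt7 and -0.0387 to 0.50 for Krt18. The interaction ranged from -0.28 to 0.25 for Krt18 and -1.56 to 1.31 for Krt15.

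Same-numbered libraries did not deviate together, and with a replicate block 0 members passed; the genes passing numbered 43, 5, 48, 0 and 3, against 39, 4, 43, 0 and 2 without it. edgeR passed 59, 4, 54, 0 and 7 genes and DESeq2 134, 28, 130, 0 and 27. Across all settings they numbered 1 to 190 (HDM against PBS in WT), 0 to 320 (in cKO), 0 to 142 (cKO against WT under HDM), 0 to 315 (under PBS) and 0 to 115 (interaction). At this depth Krt5, Krt4 and Trp63 entered only the fit with no filter, where none passed and standard errors were 1.12 to 2.37.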

Other observations

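Krt87, a hair keratin picked out after its values were seen, had 16 reads in all, in the second cKO PBS library (14.0 normalized counts) and the second WT PBS library (4.55) alone. Both of these libraries also held Krt4, at 15.2 and 13.6 normalized counts. Krt4 was likewise present in the second cKO HDM library, at 11.6, where Krt87 had 0 reads. Krt1, a keratin of the epidermis, had reads in 7 of the 8 libraries, at no more than 9.76 normalized counts.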
